A study of Rattus norvegicus with 13 samples.

Results

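The 3 microRNAs (miRNAs) rno-miR-144, rno-miR-144* and rno-miR-451, called miR-144, miR-144* and miR-451 below, come from a pair of neighbouring precursor genes, Mir144 and Mir451a, that are known above all from red blood cells. They were taken by name from the 677 rat miRNAs on the array, and all 3 were present. All 3 also passed the filter on dim miRNAs, which kept the 176 miRNAs detected on at least 6 of the 13 arrays. miR-451 and miR-144 were detected on 13 arrays and miR-144* on 11.

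The samples were fat of adult female Sprague Dawley rats, and each array held the RNA of 1 daughter. The 6 HFD arrays came from daughters of males kept on high-fat pellets (43% as fat). The 7 Control arrays came from daughters of males kept on standard chow (9% as fat). All fathers were paired at 15 weeks of age with chow-fed females, all daughters were weaned onto chow at 3 weeks, and their fat was harvested at the age of 14 weeks. The study compared the diets of the fathers through miRNAs in fat of the next generation. The labels name no fat depot, litter or father, so daughters of 1 male may count as separate samples, and the p-values measure the spread between these animals only.

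An array is named here by the father's diet and the animal number of its title. The numbers fall into an upper range, 656 to 664 (HFD 660 and 663, Control 656, 658, 662 and 664), and a lower range, 619 to 631 (HFD 619, 620, 624 and 629, Control 622, 627 and 631), and the labels do not say what the ranges stand for. Per the file headers the arrays sat on 2 slides, each scanned separately. Slide 2 held HFD 619 and 620, both of the lower range, and Control 658, 662 and 664, all of the upper range, so on slide 2 diet and number range cannot be told apart. Slide 1 held HFD 624, 629, 660 and 663 and Control 622, 627, 631 and 656. Between 155 and 196 miRNAs were detected per array, 20% to 25.1% of spots were well above background, and 0 spots were saturated. Muscle miR-1 stood apart on HFD 629 (2.74), Control 662 (2.50) and Control 664 (1.94), against -5.24 to -1.28 on the other 10 arrays. All such levels are log2 values relative to the array's own 75th percentile, so they compare arrays for 1 miRNA and not miRNAs with each other.

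miRNAs are short RNAs that bind messenger RNAs through a seed near their 5′ end and lower their output. In developing red cells of the mouse, the factor GATA1 switches on the shared transcript of both precursors, and loss of the locus impairs red cell maturation and the defence against oxidative stress. miR-451 is known for an unusual route of maturation, in which its short hairpin bypasses Dicer and is cut by Argonaute2. Circulating red cells of mammals have no nucleus but keep these miRNAs, and blood in the vessels of a tissue brings them into RNA of the whole tissue. In whole fat, fewer cells of a type and less RNA per cell cannot be told apart, and red cells were not counted. The name red cell therefore rests here on this background.

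The mature sequences are shown because they define what the probes measure, with the seed (bases 2 to 8) in capitals. They are those of RefSeq on the rat build GRCr8, which names the strands by arm: miR-144 of the array is miR-144-3p, miR-144* is miR-144-5p, miR-451 is miR-451-5p, and miR-451*, the other arm of the miR-451 hairpin, is miR-451-3p.
rno-miR-451-5p: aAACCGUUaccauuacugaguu
rno-miR-144-3p: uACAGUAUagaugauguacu
rno-miR-144-5p: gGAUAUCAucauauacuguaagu
rno-miR-451-3p: aUGGUAAUgguucucuugcugcu
The 4 seeds differ, and 0 other mature rat miRNAs in the RefSeq table share any of them. Bases 2 to 7 of miR-144-3p are shared with miR-101a-3p and miR-101b-3p, and those of miR-451-3p with miR-1193-5p.

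Both precursors lie on the plus strand of chromosome 10, between the protein-coding genes Flot2 and Eral1. Mir144 spans chr10:63459397-63459479 and Mir451a spans chr10:63459569-63459640, with 89 bases between them. The hairpins are shown because they differ in where the 3 miRNAs lie, with miR-144, miR-144* and miR-451 in capitals. miR-451-3p, which lies after miR-451 in Mir451a, is left in lower case.
Mir144: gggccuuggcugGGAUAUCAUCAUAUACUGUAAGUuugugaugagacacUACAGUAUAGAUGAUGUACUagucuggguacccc
Mir451a: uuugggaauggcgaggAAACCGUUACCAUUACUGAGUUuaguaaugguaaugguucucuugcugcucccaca
In the fold predicted by RNAfold 2.7.2, the loop of Mir144 took bases 38 to 43, and neither mature strand (bases 13 to 35 and 50 to 69) had a base in it. The loop of Mir451a took bases 35 to 38, and the mature miR-451, at bases 17 to 38, held all 4 of them.

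miR-451 had levels of 1.45 (619), 1.53 (620), 1.60 (624), 2.60 (629), 2.32 (660) and 2.48 (663) in the daughters of HFD fathers. In the daughters of Control fathers it had 1.20 (622), 0.62 (627), 1.20 (631), 0.64 (656), 2.10 (658), 2.04 (662) and 2.30 (664). HFD 629, 660 and 663 and Control 658, 662 and 664 were thus the 6 highest arrays, 3 of each diet, and the 2 lowest arrays, 627 and 656, were Controls. The groups overlapped.

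miR-144, which in human red cells acts on the antioxidant regulator NRF2, had levels of -1.35 (619), -1.74 (620), -1.79 (624), -0.31 (629), -0.76 (660) and -0.27 (663) on the HFD arrays. On the Control arrays it had -2.26 (622), -2.61 (627), -1.82 (631), -2.43 (656), -0.68 (658), -0.73 (662) and -0.82 (664). The same 6 arrays as for miR-451 were the highest, and Control 627 was again the lowest.

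miR-144*, the 5′ strand of the same hairpin, was near the limit of detection. Its levels on the HFD arrays were -5.39 (619), -5.19 (620), -5.46 (624), -4.45 (629), -4.63 (660) and -4.18 (663). Control 631, 658, 662 and 664 had -5.51, -4.91, -4.93 and -4.77, and Control 622, 627 and 656 were at the floor of -5.67, where values have no order. It was detected on 6 of 6 HFD arrays and 5 of 7 Control arrays.

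**Figure D1:**
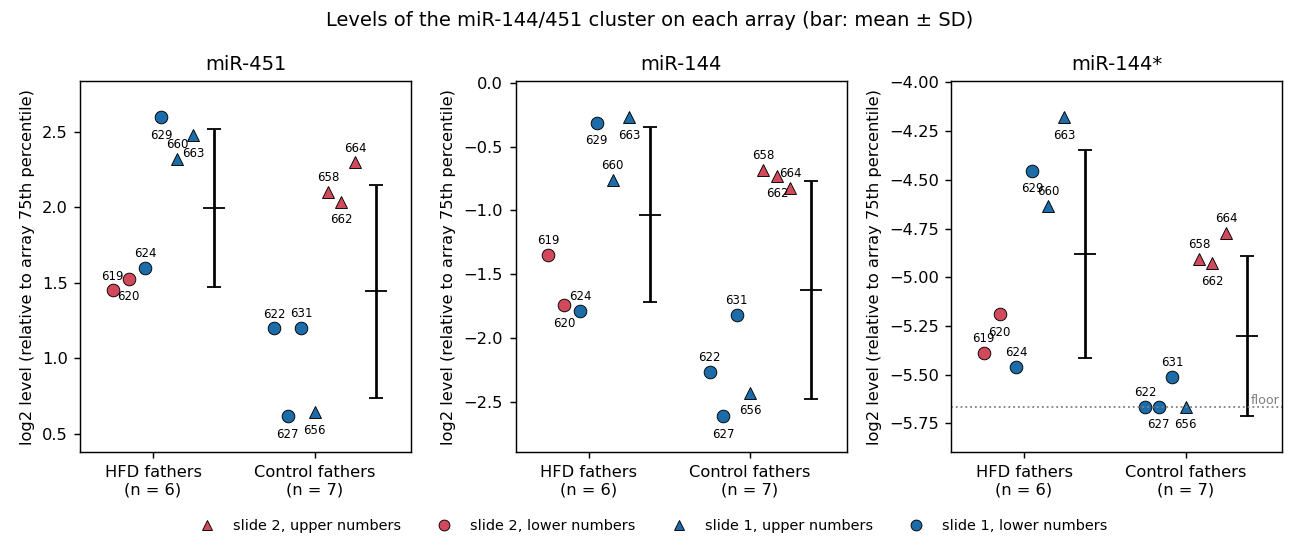
Log2 level of miR-451, miR-144 and miR-144* (y axis, relative to the array's 75th percentile) on each array, daughters of HFD fathers left and of Control fathers right, with the animal number at each point. Colour gives the slide, shape the number range, and the bar the mean ± SD; HFD 629, 660 and 663 and Control 658, 662 and 664 are the 6 highest arrays in all 3 panels, and the dotted line is the floor of -5.67.

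Each of the 3 miRNAs was read by 2 probes, and the levels of the probes of a miRNA were closely correlated. For miR-451 the Pearson r of its probes over the 13 arrays was 0.994, for miR-144 0.994 and for miR-144* 0.963. The miR-144* probes were detected on 8 and 11 arrays and were at the floor on 4 and 3. The unscaled mean signals of the miR-451 probes ran from 1858 to 12708 and from 3028 to 18601 intensity units, and HFD 629 was highest on each. Those of miR-144 ran from 151 to 1282 and from 424 to 3263, and those of miR-144* from 18 to 98.9 and from 22.2 to 136, again with HFD 629 highest. The arm opposite miR-451 was also on the array. It was chosen here after its values were seen, and it was detected on 0 of 13 arrays, with 0% of its spots well above background and probe means of -8.64 to 3.19.

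The 3 miRNAs were among the more variable in this fat. Over the 13 arrays the SD was 0.81 log2 units for miR-144, 0.67 for miR-451 and 0.50 for miR-144*, the 6th, 9th and 13th highest of 176, against a median SD of 0.154. From the lowest to the highest array, miR-144 spanned 5.07-fold and miR-451 3.95-fold. miR-144* spanned 2.81-fold, with 3 arrays at the floor.

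Daughters of HFD fathers did not differ from daughters of Control fathers past the test for any of the 3, although all 3 averages were higher. miR-451 averaged 1.99 ± 0.52 (SD, n = 6) on HFD arrays and 1.44 ± 0.70 (SD, n = 7) on Control arrays, a log2 difference of 0.55 ± 0.33 (SE). That is 1.47-fold with a 95% interval of 0.899 to 2.39-fold, and the limma p adjusted by Benjamini-Hochberg over 176 miRNAs was 0.965. miR-144 averaged -1.04 ± 0.69 (SD, n = 6) on HFD arrays and -1.62 ± 0.86 (SD, n = 7) on Control arrays, 1.50-fold with an interval of 0.817 to 2.76. miR-144* averaged -4.88 ± 0.53 (SD, n = 6) on HFD arrays and -5.30 ± 0.41 (SD, n = 7) on Control arrays, 1.34-fold with an interval of 0.925 to 1.93.

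These intervals span no change, and they also span a rise of nearly 2-fold or more for each miRNA. The limma adjusted p was 0.965 for miR-144 and miR-144* too, with 0 of 176 miRNAs (0%) past 0.05 and 2 (1.14%) at an unadjusted p under 0.05, neither of them from this locus. Unadjusted limma p values were 0.115 for miR-451, 0.172 for miR-144 and 0.112 for miR-144*. Two-sided exact permutation p values over all 1716 splits of the arrays were 0.142, 0.207 and 0.134 in the same order, where the smallest possible is 0.000583. By size, miR-144 and miR-451 had the largest and the next largest absolute diet differences of the 176, and miR-144* the fifth. This rank takes no account of spread, and by SD over the arrays they also stood high, at 6th, 9th and 13th. The log2 difference of miR-144*, 0.42 ± 0.25 (SE), was 0.28 without HFD 663, 0.23 with normexp background correction and 0.96 with Feature Extraction's total gene signal. That of miR-144, 0.59 ± 0.41 (SE), was 0.91 with array weights.

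With number range as a block the diet differences were larger, and none passed the test. HFD minus Control was 0.72 ± 0.28 (SE) for miR-451, 0.81 ± 0.34 for miR-144 and 0.57 ± 0.19 for miR-144* on the log2 scale, with unadjusted limma p values of 0.0274, 0.0337 and 0.0118. All 3 limma adjusted p values were 0.972, with 0 of 176 miRNAs (0%) past 0.05 and 6 (3.41%) at an unadjusted p under 0.05. The 3 members of the locus were among those 6, at ranks 1, 3 and 5 by p. For miR-144* the blocked difference was 0.28 with normexp background correction, 0.92 with the deposited table and 1.26 with total gene signal.

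Within the upper range, the 2 HFD arrays lay above the 4 Control arrays for miR-451 and miR-144*, as for 4 of 176 miRNAs (2.27%). miR-451 averaged 2.40 on the HFD arrays and 1.77 on the Control arrays there, a difference of 0.63 ± 0.45 (SE). For miR-144 the diets overlapped in this range, since HFD 660 (-0.76) lay just below Control 658 (-0.68) and 662 (-0.73). Within the lower range, the 4 HFD arrays lay above the 3 Control arrays for all 3 miRNAs, as they did for 11 of 176 miRNAs (6.25%). For miR-144 HFD 624 (-1.79) lay just above Control 631 (-1.82) there. miR-451 averaged 1.79 on the HFD arrays and 1.01 on the Control arrays of that range, a difference of 0.79 ± 0.40 (SE).

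Only miR-451 and miR-144*, 1.14% of the 176 miRNAs, had every HFD array above every Control array in both ranges, and another 2 (1.14%) had every HFD array below. Some margins were narrow. For miR-451 in the upper range HFD 660 (2.32) lay just above Control 664 (2.30). For miR-144* in the lower range HFD 624 (-5.46) lay just above Control 631 (-5.51), with the other Controls at the floor. The 2 miRNAs also varied together (r 0.935), so they are not separate observations. The diet difference of miR-144 was 0.65 ± 0.53 (SE) in the upper and 0.94 ± 0.47 in the lower range. That of miR-144* was 0.66 ± 0.30 in the upper and 0.49 ± 0.26 in the lower range. The limma adjusted p values of these within-range differences were between 0.728 and 0.797. The test of the difference between the ranges gave -0.16 ± 0.60 (SE) for miR-451, -0.28 ± 0.71 for miR-144 and 0.17 ± 0.40 for miR-144* (upper minus lower range), with limma adjusted p values from 0.932 to 0.951, where 1 of 176 miRNAs (0.568%) passed, a miRNA of another locus. The sign of these differences changed with the scaling or with single arrays, so they have no settled direction.

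Across the number ranges themselves, all 3 miRNAs averaged higher in the upper range, and none passed the test. miR-451 averaged 1.98 ± 0.67 (SD, n = 6) in the upper and 1.46 ± 0.60 (SD, n = 7) in the lower range. With diet in the fit the difference was 0.69 ± 0.28 (SE), or 1.62-fold. miR-144 differed by 0.94 ± 0.34 (1.92-fold) and miR-144* by 0.62 ± 0.19 (1.54-fold). The limma adjusted p was 0.592 for each, with 0 of 176 miRNAs (0%) past 0.05. The value of miR-144* was 0.21 with normexp, 0.99 with the deposited table and 1.25 with total gene signal.

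The 13 miRNAs (7.39%) with an unadjusted limma p under 0.05 included all 3 of the locus (0.0319 for miR-451, 0.0167 for miR-144, 0.00702 for miR-144*). Control 656 was low although in the upper range, and HFD 629 was high although in the lower range. Without Control 656 the differences were 0.89 for miR-451, 1.16 for miR-144 and 0.73 for miR-144*.

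The slides differed in the order of the diets. On slide 2, miR-451 averaged 1.49 on the 2 HFD arrays and 2.15 on the 3 Control arrays, a difference of -0.66 ± 0.28 (SE), or 0.634-fold. miR-144 averaged -1.54 on HFD and -0.75 on Control arrays (-0.80 ± 0.39), and miR-144* -5.29 on HFD and -4.87 on Control arrays (-0.42 ± 0.28). None passed the test, with limma adjusted p of 0.364, 0.368 and 0.458 and 21 of 176 miRNAs (11.9%) at an unadjusted p under 0.05, miR-451 among them (0.0377). Both HFD arrays lay below all 3 Control arrays for each of the 3 miRNAs, as for 22 of 176 miRNAs (12.5%). With normexp the difference of miR-144* was close to 0 (-0.029), and with the deposited table it was -0.70.

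On slide 1, where both diets were present in both number ranges, miR-451 and miR-144 were higher in daughters of HFD fathers. The ranges were not balanced there, with 2 upper and 2 lower HFD arrays against 1 upper and 3 lower Control arrays. Number range was not in this fit. miR-451 averaged 2.25 on the 4 HFD arrays and 0.92 on the 4 Control arrays of slide 1, a log2 difference of 1.33 ± 0.21 (SE). That is 2.52-fold (95% interval 1.81 to 3.50), with a limma adjusted p of 0.0133. miR-144 averaged -0.78 on HFD arrays and -2.28 on Control arrays, 1.50 ± 0.30 (SE) or 2.83-fold higher (1.78 to 4.49), with a limma adjusted p of 0.0408. miR-144* averaged -4.68 on HFD arrays and -5.63 on Control arrays, a difference of 0.95 ± 0.21 (SE) with a limma adjusted p of 0.0657. This value was 0.42 with normexp, 1.56 with the deposited table and 1.91 with total gene signal.

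miR-451 and miR-144 were the only 2 of 176 miRNAs (1.14%) past the threshold on slide 1. All 4 HFD arrays lay above all 4 Control arrays for each of the 3 miRNAs, as for 6 of 176 (3.41%). HFD 624 lay just above Control 631 for miR-144 (-1.79 and -1.82) and miR-144* (-5.46 and -5.51). The call for miR-451 was lost without Control 627, Control 656, HFD 629, HFD 660 or HFD 663 (limma adjusted p 0.0517 to 0.0641). The call for miR-144 remained only without Control 631 or HFD 624, and reached an adjusted p of 0.170 without Control 627. Without the 3 arrays of high miR-1, a choice made after seeing the data, the differences were 1.22 and 1.34 with limma adjusted p of 0.189 and 0.347. Of these 3 arrays only HFD 629 was on slide 1, so the 2 differences are also those without HFD 629 alone. Their p values came from a common fit that had also lost Control 662 and 664 of slide 2. Over the single arrays left out, the difference was 1.22 to 1.55 for miR-451 and 1.33 to 1.83 for miR-144.

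miR-144, miR-144* and miR-451 were the only 3 of 176 miRNAs (1.7%) with every HFD array below every Control array on slide 2 and above on slide 1, and 0 had the opposite pattern. This count was not among the planned comparisons. The 3 also varied together (r with miR-451 of 0.965 for miR-144 and 0.935 for miR-144*), so they are not 3 separate observations. The test of the difference between slides gave -1.99 ± 0.35 (SE) for miR-451, the diet difference on slide 2 minus that on slide 1. Its limma adjusted p was 0.0281, and miR-451 was the only miRNA past the threshold (0.568% of 176), while 34 (19.3%) had an unadjusted p under 0.05. miR-144 came next by p with -2.30 ± 0.49 (SE) and a limma adjusted p of 0.0661, then miR-144* with -1.37 ± 0.35 (SE) and 0.154. The value of miR-144* was -0.45 with normexp, -2.27 with the deposited table and -2.35 with total gene signal.

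On slide 2 the HFD arrays are the lower and the Control arrays the upper number range. With number range as a block, an alternative added after seeing the data, the difference for miR-451 was -1.97 ± 0.48 (SE) and its limma adjusted p was 0.340. The call also ended without Control 627, 656, 662 or 664 or without HFD 619, 620, 629, 660 or 663, with limma adjusted p of 0.0562 to 0.180 and differences of -2.04 to -1.87. Without the 3 arrays of high miR-1, Control 658 was the only Control array left on slide 2. The difference for miR-451 was then -1.83. Slide 2 minus slide 1 with diet in the fit was 0.36 ± 0.33 (SE) for miR-451, 0.53 ± 0.41 for miR-144 and 0.16 ± 0.26 for miR-144*, with limma adjusted p from 0.682 to 0.946 and 0 of 176 miRNAs (0%) past 0.05, against 22 (12.5%) at an unadjusted p under 0.05. These slide differences moved with single arrays. That of miR-451 was 0.20 without Control 664 and 0.61 without HFD 619, that of miR-144 was 0.87 without HFD 620, and that of miR-144* was 0.051 without Control 664 and 0.35 without HFD 619.

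**Figure D2:**
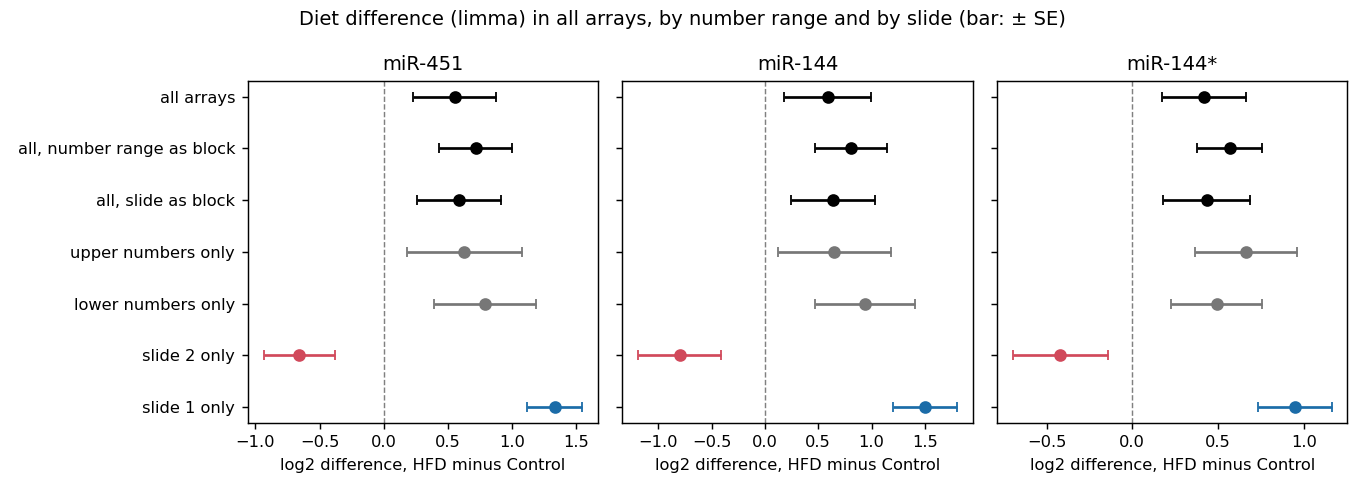
Log2 difference HFD minus Control (x axis) with its SE for miR-451, miR-144 and miR-144*, in all 13 arrays without and with a block, within each number range and within each slide. The differences were positive in every row except slide 2, where miR-451 was at -0.66, miR-144 at -0.80 and miR-144* at -0.42.

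Across the 13 arrays the 3 miRNAs varied together more closely than miR-451 did with any other miRNA. miR-144 followed miR-451 with a Pearson r of 0.965 and a Spearman rho of 0.929 (Benjamini-Hochberg adjusted permutation p = 0.00175 for r and 0.00437 for rho, over 175 relations). miR-144* followed it with an r of 0.935 and a rho of 0.972 (adjusted permutation p = 0.00175 for each). miR-144 and miR-144* correlated with each other at an r of 0.941 and a rho of 0.945. The median r of miR-451 with the miRNAs outside the locus was -0.074. Of all 175 relations, 6 (3.43%) passed the threshold, 4 (2.29%) of them with a positive r.

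Both relations held inside the groups. The r of miR-144 with miR-451 was 0.942 over the HFD arrays, 0.970 over the Control arrays, 0.975 in the upper range, 0.949 in the lower range and 0.978 on slide 1, and slide 2 held too few arrays. For miR-144* it was 0.948 over the HFD arrays, 0.960 over the Control arrays, 0.923 in the upper range, 0.926 in the lower range and 0.936 on slide 1. Without HFD 629 and Control 627, the 2 arrays farthest from the median of miR-451, the r was 0.947 for miR-144 and 0.926 for miR-144*. In order of miR-451, the widest gaps between neighbouring arrays were 0.56 and 0.44, and over the 6 highest and the 7 lowest arrays apart the r was 0.746 and 0.859 for miR-144 and 0.859 and 0.770 for miR-144*.

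Of the 5 other miRNAs most like miR-451, miR-19a (r 0.886, rho 0.852, adjusted permutation p of r 0.00467) and miR-25 (r 0.822, rho 0.830, adjusted permutation p 0.0222) passed the threshold. Without the 2 farthest arrays their r was 0.893 and 0.838. The next were miR-19b (r 0.752), miR-17-5p (r 0.730) and miR-92a (r 0.723), with adjusted permutation p of 0.0780, 0.0962 and 0.112. All 5 belong to the miR-17-92 cluster or its paralog, the miR-106b-25 cluster, which are known from dividing blood cell precursors and many other cells. They varied far less than the locus itself, with an SD of 0.231 for miR-19a and 0.116 for miR-25. Of the 5, miR-25 and miR-92a are also on the list of other red cell miRNAs described below.

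The lowest r belonged to miR-324-5p (-0.842, rho -0.797, adjusted permutation p 0.0171), let-7i (-0.825, rho -0.830, 0.0206) and miR-23a (-0.738, 0.105). Unlike miR-144 and miR-144*, which passed in every alternative run, these relations depended on how arrays were scaled. Over the alternatives other than single arrays left out, miR-19a and miR-25 each passed in 3 of 8, let-7i in 2 of 8 and miR-324-5p in 1 of 7. The r of miR-19a was lowest with the floor raised 4 times (0.575), and that of miR-25 with the percentile taken over all probes (0.264). With no scaling between arrays r was 0.245 for miR-324-5p, 0.180 for let-7i and 0.279 for miR-23a, the opposite sign, and 31 miRNAs passed. The call was also lost for miR-25 without Control 656, HFD 620, HFD 629 or HFD 660, for let-7i without Control 627 or HFD 629, and for miR-324-5p without Control 656 or HFD 629. Without HFD 629 the number past the threshold was 3.

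**Figure D3:**
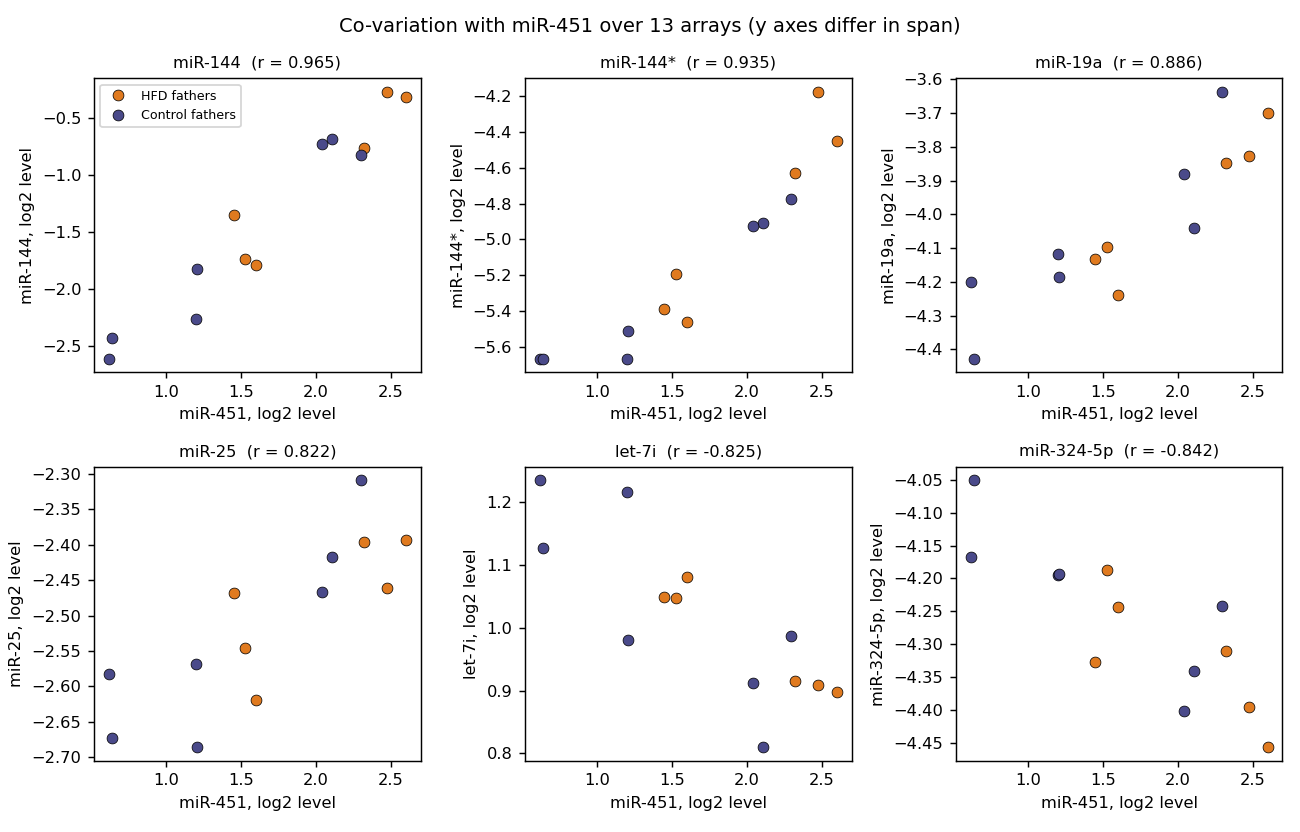
Log2 level of miR-144, miR-144*, miR-19a, miR-25, let-7i and miR-324-5p (y axes) against miR-451 (x axis) on the 13 arrays, HFD in orange and Control in blue. Both diets lie along the same line for miR-144 (r = 0.965) and miR-144* (r = 0.935), and the y axes of miR-25, let-7i and miR-324-5p span much less.

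**Figure D4:**
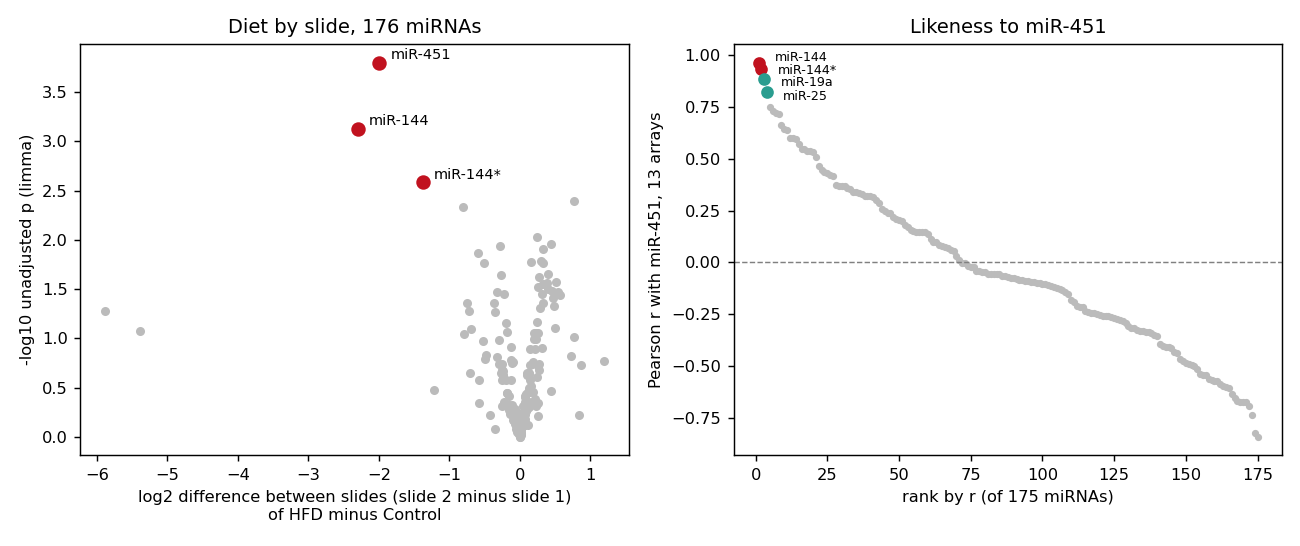
Left, the difference between slides in HFD minus Control (x axis, log2) against -log10 of its unadjusted limma p (y axis) for 176 miRNAs, with miR-451, miR-144 and miR-144* in red as the 3 lowest p. Right, Pearson r with miR-451 over 13 arrays (y axis) for 175 miRNAs in order of r, with miR-144 and miR-144* in red at the top and miR-19a and miR-25 in green after them.

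Other miRNAs known to be abundant in red cells showed small diet differences. Of 13 such miRNAs 8 were tested, 7 were higher and 1 lower in daughters of HFD fathers, and 0 passed the test. Their median log2 difference was 0.042, against 0.0028 over all 176, of which 91 were higher and 85 lower. In the diet comparison 0 members of this or the other lists described here had an unadjusted limma p under 0.05. Of the 8, miR-93 (0.065 ± 0.059 SE) and miR-16 (0.047 ± 0.050 SE) had the lowest p. The summed linear level of the 8 ranged from 3.21 to 3.36 on HFD arrays and from 2.97 to 3.73 on Control arrays. Its log2 correlated with miR-451 at an r of 0.590 (adjusted permutation p 0.0842 over the 10 array measures compared). That r was 0.641 over the HFD arrays, 0.569 over the Control arrays, 0.496 in the upper range, 0.799 in the lower range and 0.891 on slide 1. Without the 2 farthest arrays it was 0.447. The sum, like those of the lists below, weighs bright miRNAs most. The brightest here was miR-16, with a mean log2 level of 1.12 against -1.20 for miR-15b, the next.

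Of 9 miRNAs known to fall in or restrain red cell maturation 6 were tested, of which 2 were higher and 4 lower with a median of -0.082, and 0 passed. miR-221, which restrains the growth of human red cell precursors through the receptor KIT, had the lowest p of these, with -0.52 ± 0.27 (SE). The log2 of their summed level correlated with miR-451 at -0.595 (adjusted permutation p 0.0842). This sum of linear levels also weighs bright miRNAs most, with mean log2 levels of 0.87 for miR-24 and -3.54 for miR-221. Of its members, miR-223 and miR-150 are also on the white blood cell list and miR-103 on the adipocyte list, so the value is not particular to red cells.

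Measures of other blood and vessel cells did not pass a test against miR-451 either. Of the markers of white blood cells and platelets 6 of 7 were tested, 1 was higher and 5 lower in the diet comparison (median -0.081), and 0 passed. Their summed level ranged from 2.60 to 3.14 on HFD arrays and from 2.37 to 4.09 on Control arrays, with an r of 0.226 to miR-451. The endothelial miR-126 and miR-126* were tested, and differed by 0.082 ± 0.075 and 0.086 ± 0.068 (SE). The r of their log2 sum with miR-451 was -0.542 (adjusted permutation p 0.0842), and it was -0.616 without the 2 farthest arrays. Inside the groups it was -0.762 over the HFD arrays, -0.821 over the Control arrays, -0.545 in the upper range, -0.407 in the lower range and -0.423 on slide 1.

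The muscle markers differed widely between arrays. Of 6 listed miRNAs 3 were tested, 0 were higher, and their median diet difference was -0.18. Their summed level ranged from 0.092 to 12.9 on HFD arrays and from 0.105 to 10.9 on Control arrays. HFD 629, Control 662 and Control 664, the 3 arrays of high miR-1, were also among the 6 arrays of high miR-451. The r between the log2 sum and miR-451 was 0.544 (adjusted permutation p 0.0842), and 0.378 without the 2 farthest arrays. It was 0.328 over the HFD arrays, 0.823 over the Control arrays, 0.218 in the upper range, 0.849 in the lower range and 0.511 on slide 1. HFD 660, HFD 663 and Control 658 had high miR-451 with miR-1 at -5.16, -4.54 and -2.99. Without the 3 arrays the diet difference was 0.72 for miR-451, 0.78 for miR-144 and 0.51 for miR-144*. All 7 listed adipocyte miRNAs were tested, with summed levels of 6.69 to 8.02 on HFD arrays and 6.21 to 18.5 on Control arrays. The 18.5 was Control 658, and the other Control arrays ran from 6.21 to 7.62. The log2 of this sum had an r of 0.083 and a rho of -0.225 to miR-451. Its r was -0.769 over the HFD arrays, 0.307 over the Control arrays, -0.025 in the upper range, 0.017 in the lower range and -0.246 on slide 1.

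Of the 10 array measures compared, 1 passed against miR-451. The percentage of spots well above background had an r of 0.736 with miR-451 (rho 0.731, adjusted permutation p 0.0433 for r and 0.0621 for rho), and an r of 0.571 without the 2 farthest arrays. It was 0.883 over the HFD arrays, 0.637 over the Control arrays, 0.355 in the upper and 0.922 in the lower range. The number of detected miRNAs had an r of 0.628 and the 75th percentile signal, by which levels were scaled, an r of 0.552 (adjusted permutation p 0.0842 each). The part of these measures in the differences between arrays was not tested.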

How the data were processed

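Cy3-labelled RNA (100 ng total RNA, per the labels) was hybridised to 13 Agilent 1-colour rat miRNA arrays. Per the file headers, the authors' scans were quantified by Feature Extraction 10.7.3.1 with an rn4 grid. Deposited spot values were linear intensity after background subtraction, with no scaling from array to array. The deposited value table holds log2 intensity per miRNA and served only as an alternative. Unflagged spots of a probe were averaged (2.75% of spots were flagged), scaled to the 75th percentile of the 260 probes detected on every array, floored at 0.0197, taken to log2 and averaged over the probes of a miRNA. A probe was detected where at least 0.5 of its spots were well above background.

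Differences came from limma 3.58.1 (R 4.3.3, two-sided moderated test after eBayes, Benjamini-Hochberg over 176 miRNAs, threshold 0.05), tested on simulated data. Differences within a slide or a number range came from a common fit of all arrays, so their SE, interval and p used the spread of every array. Correlations used 100000 permutations (20000 for alternatives). The files hold no mean signal, so normexp used the median signal. Named miRNAs were the locus, the 5 highest and 3 lowest r with miR-451, and up to 4 of each marker list by lowest p. The members, lists and tests were chosen with earlier results of these data known. The number of arrays limits the precision.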

Additional observations from a re-analysis of the deposited data

Results flagged for a closer look

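The diet difference of miR-451 differed between slides, at -1.99 on the log2 scale for slide 2 minus slide 1 (limma adjusted p 0.0281). HFD minus Control was -0.66 on slide 2 and 1.33 on slide 1. Slide 2 holds HFD arrays of the lower and Control arrays of the upper number range only, so diet and number range cannot be told apart there. In the 6 checks of single arrays against their diet group (3 miRNAs in 2 groups), 0 arrays stood apart by Dixon's test.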

How the results depend on the processing

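No paired analysis was possible because the animal numbers in the titles are not shared between the diet groups. The diet, number range and slide differences of the 3 miRNAs kept their direction in every alternative run, and none passed. Over single arrays left out, the diet difference was 0.41 to 0.69 for miR-451, 0.42 to 0.74 for miR-144 and 0.28 to 0.53 for miR-144*. The number range difference of miR-144* was 0.21 to 1.25 and its slide difference 0.036 to 0.67 over the other alternatives, and the slide difference of miR-451 was 0.22 with the percentile over all probes. The slide comparison had 5 miRNAs past the threshold with array weights and 1 with number range as a block, against 0.

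The difference of the diet effect between number ranges changed sign for miR-451 with the percentile over all probes (0.079), median scaling (0.0018), quantile normalization (0.015) and total gene signal (0.033). It did so for miR-144* with total gene signal (-0.78) and the deposited table (-0.25). Over single arrays left out it was -0.54 to 0.11 for miR-451, -0.70 to 0.045 for miR-144 and -0.057 to 0.40 for miR-144*. The reversals came without Control 627 (0.034), Control 664 (0.015) and HFD 629 (0.11) for miR-451, without HFD 629 (0.045) for miR-144, and without Control 656 (-0.028) and HFD 663 (-0.057) for miR-144*.

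The difference between slides for miR-451 lost its call with quantile normalization (-1.85), the floor raised 4 times (-1.99) and number range as a block (-1.97). That of miR-144 passed with normexp (-2.03), with miRNAs detected on all arrays (-2.30) and with array weights (-2.41), and that of miR-144* with array weights (-1.45). Over single arrays left out it was -2.21 to -1.87 for miR-451, -2.63 to -2.10 for miR-144 and -1.63 to -1.20 for miR-144*, and miR-144 and miR-144* passed without HFD 624.

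On slide 1 the call of miR-144 was lost with median scaling (1.49), quantile normalization (1.43), no scaling (1.68), total gene signal (1.42), the raised floor (1.50), the deposited table (1.68), no detection filter (1.50) and without the 3 arrays of high miR-1 (1.34). That of miR-451 was lost with the deposited table (1.52) and without those 3 arrays (1.22). miR-144* passed with the percentile over all probes (0.90) and array weights (1.06). Over the other alternatives the difference of miR-144* was 0.42 to 1.91 on slide 1 and -0.70 to -0.029 on slide 2, and that between slides was -2.35 to -0.45. Over single arrays left out the difference was 1.22 to 1.55 for miR-451, 1.33 to 1.83 for miR-144 and 0.78 to 1.21 for miR-144*.

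The number of miRNAs that followed miR-451 past the threshold was 6, against 2 with the percentile over all probes, 3 with quantile normalization, 31 with no scaling, 3 with total gene signal, 3 with the raised floor, 2 without the 3 arrays of high miR-1, and 3 to 8 over single arrays left out. Without scaling r changed sign for miR-23a (0.28), let-7i (0.18) and miR-324-5p (0.24). With the raised floor miR-144* was at the floor on all arrays and gave no value, and it was not among miRNAs detected on all arrays. The causes of these changes were not tested. Dim signal limits miR-144*, which was at the floor on 3 arrays.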
